A study of Mus musculus with 39 samples.

Results

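The centre of a sucrose gradient of mouse liver was compared with both of its ends. Homogenate made without detergent, with nuclei spun out, had been layered on 2 continuous sucrose gradients, separated by ultracentrifugation and collected in numbered fractions from light to dense, and the RNA of each fraction was sequenced (ATLAS-Seq). The livers came from wild-type FVB females, a common inbred laboratory strain, and no transgene or treatment is given for them in the sources used here. For each gene and gradient, the mean log2(TPM + 1) over fractions 10 to 13 (the middle zone) was set against the mean of 2 values, the mean over fractions 4 to 7 (the light zone) and the mean over fractions 16 to 19 (the dense zone). The resulting difference, called the middle contrast here, is in log2 units and is positive for an RNA that took a larger share of the middle fractions than of the ends. The comparison used 24 of the 39 libraries of the series, 8 in each zone, 4 from each gradient. The 2 gradients are the replicates, and neighbouring fractions of one gradient are not. Of 13230 genes listed in both gradients, the 11754 with a mean TPM of at least 1 over the 24 libraries were tested. Some genes are named beside the fixed choice because a count of 5 or fewer was at issue, and these were picked after their values were seen. The study describes the gradients as independent biological replicates, and the p-values rest on the spread between these 2.

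In such a gradient, the place of an RNA depends on how far the particle that holds it has moved by the end of the spin. Free RNA and small ribonucleoproteins stay near the top, single ribosomes and their subunits go deeper, and messages with many ribosomes go deeper still, while membrane vesicles are held up by their lipid and carry the messages of secreted and membrane proteins with them. An RNA can therefore be most abundant at the centre without being abundant at either end, a shape that a comparison of one end with the other does not show. TPM, a normalised transcript abundance, is a share of the RNA of one library. A value that is higher in the middle can come from more of that RNA there or from less of the others, and these cannot be told apart.

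Between 10541 and 12357 genes had a TPM over 1 in each of the 24 libraries (median 11213). The depth behind a value is unknown, because no read counts are used here. The 50 genes with the highest TPM in each library, a set that can differ between libraries, took 29.9 to 50.9% of the total in light libraries. The share was 27.4 to 32.2% in middle libraries and 31.1 to 39.0% in dense libraries, so it varied most among the light libraries. Over all genes tested the middle contrast had a median of 0.15, with quartiles of −0.26 and 0.53. That median was 0.01 after quantile normalization and −0.05 with each library centred on its median. It was 0.06 after rescaling without the 50 genes of highest mean TPM over the 24 libraries, a fixed set. List medians below are read against this shift.

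At the centre of the gradient 1590 genes were higher than the mean of both ends and 424 were lower (limma across all genes, adjusted p under 0.05), which is 13.5% and 3.61% of the genes tested. Lower calls numbered 876 after quantile normalization, 906 with centred libraries, 104 and 169 with gradient 2 moved by 1 fraction to the light and dense side, and 274 without fraction 5 of gradient 2, and higher calls numbered 693 with the move to the dense side. Higher calls were 78.9% of all calls, but 58.5% after quantile normalization and 57.3% with centred libraries. With the gradient as a replicate block in the same fit, the counts were 4089 higher (34.8%) and 1890 lower (16.1%), and all 2014 genes called without the block were among them. Gradients 1 and 2 gave contrasts of one sign for 89.9% of all genes tested. They did so for 100% of the called ones, a share largely set by the choice, since a small spread between these gradients favours a call.

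A high contrast alone does not make a peak, because a gene that is very low at one end can reach it with a level plateau between the centre and the other end. Genes were therefore also asked to lie above both end zones, or below both, in each gradient. Of the genes called higher, 1344 did so (11.4% of those tested; 2610 with the block and 656 with gradient 2 moved by 1 fraction to the dense side) and are called peaks here, and the other 246 did not. Of the genes called lower, 114 lay below both ends (0.970% of those tested; 503 with the block) and are called dips, while 310 did not. The number of dips depended on the settings, with 513 after quantile normalization, 567 with centred libraries, and 27 and 46 when gradient 2 was moved by 1 fraction to the light or dense side. Peaks stood out to nearly the same degree on both sides, with a median middle-minus-light difference of 1.20 and a median middle-minus-dense difference of 1.14. Dips were one-sided by comparison, with medians of −1.58 against the light zone and −0.33 against the dense zone. The higher genes that were no peaks had medians of 1.75 and −0.13, which is a step up from the light end followed by a plateau. The lower genes that were no dips had medians of −2.20 and 0.21, a step down. Tested alone, the middle zone was higher than the light zone for 23.5% of genes and lower for 24.1%, and it was higher than the dense zone for 22.5% and lower for 4.79%.

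**Figure D1:**
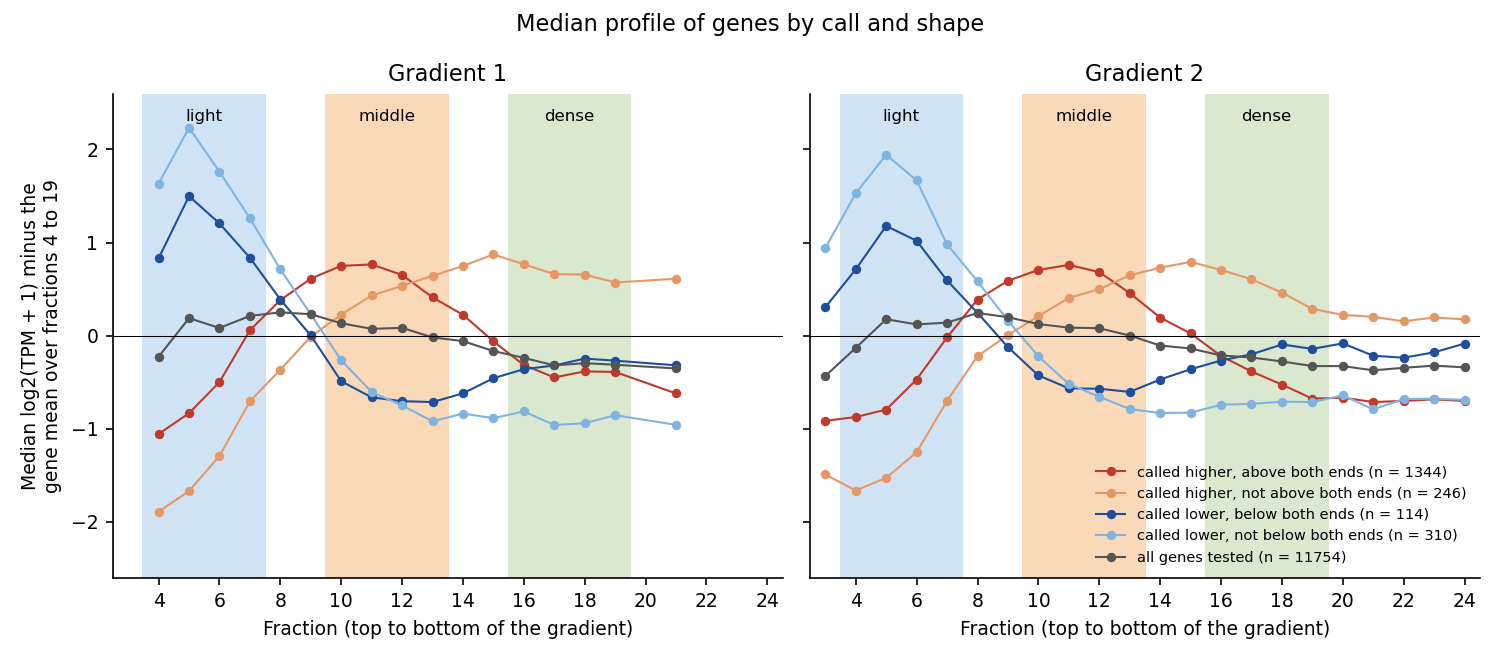
Median profile of 5 classes of genes along each gradient: the x axis is the fraction number, from light to dense, and the y axis is the median over the class of log2(TPM + 1) after centring each gene on its own mean, with one panel per gradient. The 1344 peaks form a hump over fractions 8 to 14 in both panels, and the 114 dips are high at the light end only, with a shallow trough near the centre.

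The fractions between the zones, 8 to 9 and 14 to 15, were compared with the same end libraries that chose these genes, so their values are partly fixed by that choice. Both flanks were above their neighbouring end zone for 95.8% of peaks in gradient 1 and 96.5% in gradient 2, against 39.9% and 41.8% of all genes tested. Both flanks were below their end zone for 88.6% and 86.0% of dips, against 15.6% and 20.7% of all genes. Within fractions 4 to 19, a peak reached its highest TPM most often at fraction 10 in gradient 1 (287 genes) and at fraction 12 in gradient 2 (304 genes), with a median of 11 in both. Another 22.6% and 24.4% of peaks were highest in fractions 8 and 9, against 13.5% and 17.3% of all genes tested. Fewer peaks, 98 and 114, were highest in fractions 14 and 15, so the hump leans to the light side. All genes tested leaned the same way, with 1584 and 2033 highest in fractions 8 and 9 and 813 and 1218 in 14 and 15. The dips reached their highest value in fractions 4 to 7 for 89.5% and 92.1% of genes, against 42.8% and 40.8% of all genes tested. They were lowest in fractions 10 to 13 for 73.7% and 70.2%, against 6.65% and 8.87% of all genes. All of these are descriptions, since the middle and end libraries that they use also made the calls.

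Histone mRNAs had the highest median contrast of 36 gene lists. Of 73 histone genes tested, 44 were higher at the centre and none was lower (67 and 0 with the block), 63 lay above both ends in each gradient (as did 2937 of all 11754 genes tested), and their median middle contrast was 1.70 against 0.15 for all genes (1.57 and 0.01 after quantile normalization). Of the 10 largest peaks at a mean TPM of at least 10, 6 were histone genes, and 5 of these code for histone H4, the core histone with the least sequence variation. The 13 H4 genes ranged only from 2.34 to 2.93, with 11 called (13 with the block), whereas medians were 1.79 for 16 H2B genes, 1.68 for 18 H2A genes, 1.74 for 12 H3 genes and 1.08 for 5 genes of the linker histone H1. None of the H1 genes was called without the block and all 5 were with it. Another 9 histone genes with other symbols, replacement variants among them, had a median of 1.04. Hist2h2be was the lowest of all at 0.05 ± 0.21 (SE, adjusted p = 0.897), and the abundant Hist1h2bc was at 1.62 ± 0.31 (SE, n = 2 gradients, adjusted p = 0.0224).

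Hist1h4h (chr13:23531050-23531519, + strand, GRCm38) was the most abundant of these peaks. Its TPM ran from 43.5 to 275 in light libraries (median 80.8), from 1204 to 3098 in middle libraries (median 1528) and from 454 to 730.0 in dense libraries (median 603). The middle libraries did not overlap either end, and the middle contrast was 2.88 ± 0.28 (SE, n = 2 gradients, adjusted p = 0.00501), a factor of 7.37 on this scale. Hist1h4d followed with middle libraries at 1038 to 2386 TPM, light libraries at 59.5 to 403 and dense libraries at 415 to 603, again without overlap, and a contrast of 2.49 ± 0.25 (SE, n = 2 gradients, adjusted p = 0.00508). The contrasts of Hist1h4j, Hist1h4a, Hist1h4f and Hist1h2bl were 2.93 ± 0.52, 2.48 ± 0.24, 2.46 ± 0.37 and 2.46 ± 0.26 (SE), with adjusted p from 0.00501 to 0.0181. For Hist1h4f and Hist1h2bl the middle and dense libraries overlapped. H4 genes code for near-identical mRNAs, so reads of one copy can be assigned to another, and their values are uncertain one by one. The summed TPM of the 13 H4 genes does not depend on that split. It was 220 to 1460 in light libraries, 3872 to 9778 in middle libraries and 1506 to 2325 in dense libraries.

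Replication-dependent histone mRNAs end in a short stem-loop in place of a poly(A) tail, which total-RNA libraries such as these can capture. The letters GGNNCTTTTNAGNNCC (16 bases, N for any base, sense strand only) were searched in the annotated transcripts of GENCODE M21 on GRCm38 (mm10). They were present in 64 of 11460 genes with a transcript sequence (0.558%) and in 43 of the 73 histone genes. The matches of the 4 H4 genes below, and of H2afx, which had the lowest contrast among histone genes with a match, are shown with 5 bases on each side and the matched letters in capitals. Each lies in the single exon of its gene, after the coding sequence.
Hist1h4h: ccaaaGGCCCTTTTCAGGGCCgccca
Hist1h4d: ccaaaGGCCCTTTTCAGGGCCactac
Hist1h4j: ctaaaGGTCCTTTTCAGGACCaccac
Hist1h4f: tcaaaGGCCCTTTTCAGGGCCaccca
H2afx: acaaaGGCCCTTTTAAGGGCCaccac
These stretches are at chr13:23531453-23531478 (+), chr13:23581945-23581970 (+), chr13:21735432-21735457 (+), chr13:23551286-23551311 (−) and chr9:44335235-44335260 (+). Histone genes with the letters had a median contrast of 1.79 (26 of 43 called, 40 with the block), and those without them in the annotated transcript had a median of 1.62 (18 of 30 called, 27 with the block). A missing match says only that these letters are not in the annotated transcript. The 21 other genes that held the letters had a median of 0.06, below that of all genes. H2afx, a variant that also marks DNA breaks, was at 0.50.

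**Figure D2:**
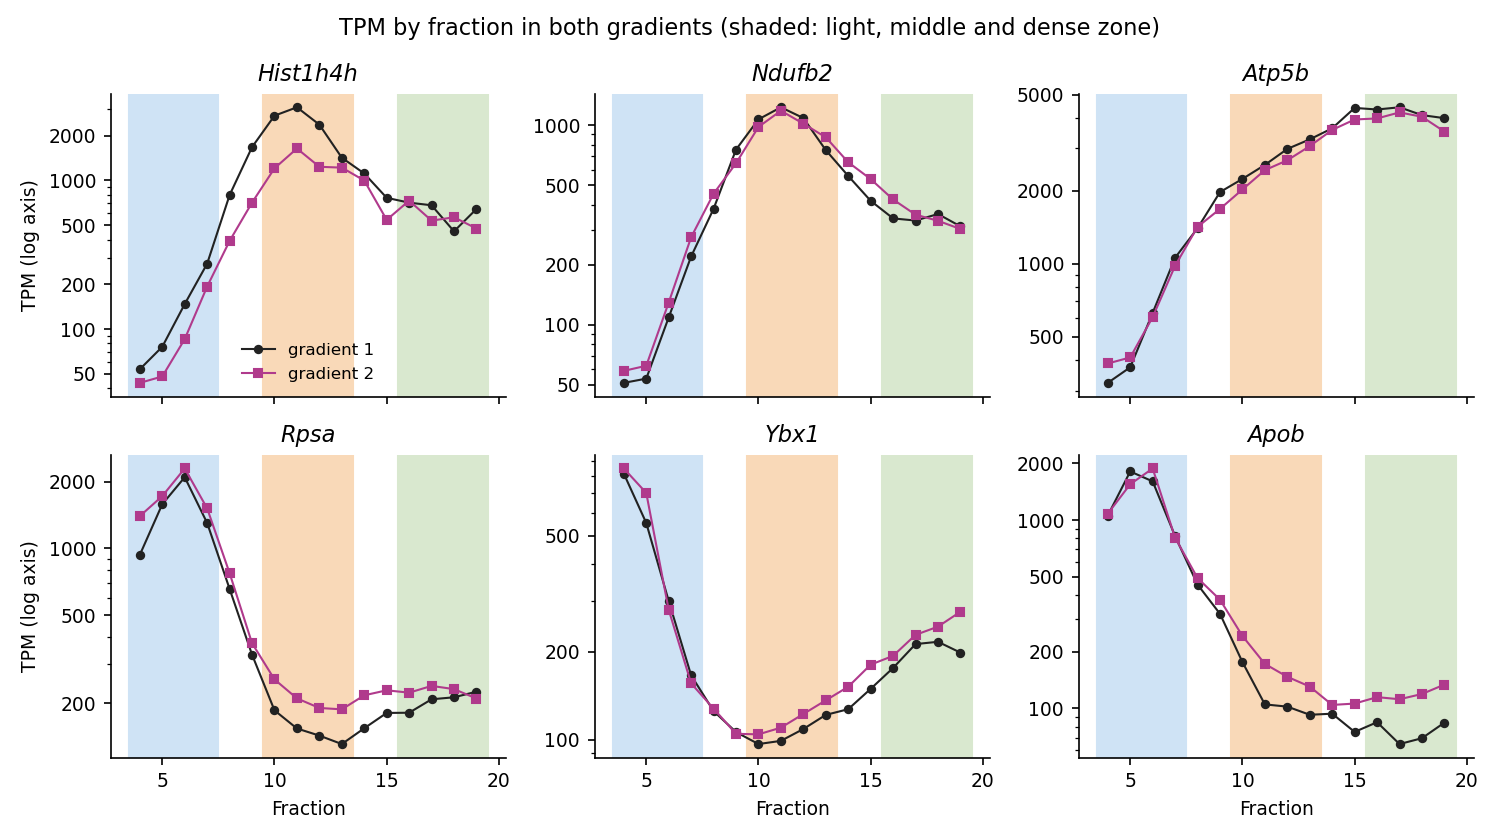
TPM (y axis, log scale) of 6 genes against fraction number (x axis, fractions 4 to 19), one line per gradient and one panel per gene: the peaks Hist1h4h and Ndufb2, the mitochondrial ATP synthase gene Atp5b, the dips Rpsa and Ybx1, and Apob. Hist1h4h and Ndufb2 are highest between the ends, Atp5b climbs to a plateau at the dense end, Apob declines along the gradient, and Ybx1 has a trough at the centre in both gradients.

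Rnu7 codes for the U7 small nuclear RNA that takes part in cutting the 3′ ends of histone pre-mRNAs. It had the largest contrast of all peaks, 3.02 ± 0.50 (SE, n = 2 gradients, adjusted p = 0.0157), from 23.0 to 75.4 TPM in middle libraries against 0 to 37.2 in light and 0 to 46.4 in dense libraries. It was listed at 0 in 3 light and 4 dense libraries, the zones overlapped, and its adjusted p was 0.0595 without fraction 18 of gradient 2. Its highest TPM was 70.2 at fraction 13 in gradient 1, but 157 at fraction 8 in gradient 2, outside the middle zone. Rnu7 also overlaps Grcc10 on the same strand, which was itself higher at the centre (contrast 1.65 ± 0.18, SE), so the source of its reads is uncertain. Sap18b, a copy of the gene for a subunit of a Sin3-associated histone deacetylase complex, had a contrast of 2.97 ± 0.17 (SE, n = 2 gradients, adjusted p = 0.00444). Its reads can be shared with Sap18, and the sum of both genes was 43.0 to 121 TPM in light, 353 to 502 in middle and 129 to 206 in dense libraries. The contrast of that sum was smaller, 1.96 in gradient 1 and 2.04 in gradient 2. Sap18b alone was listed at 0 in fraction 5 of both gradients. Cystm1, a small cysteine-rich membrane protein gene, had 28.2 to 80.3 TPM in middle libraries, all above the highest value of either end, and a contrast of 2.50 ± 0.27 (SE, n = 2 gradients, adjusted p = 0.00579).

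Nuclear genes for the mitochondrial energy machinery were high at the centre as well. Of 45 genes for subunits and assembly factors of respiratory complex I, which takes electrons from NADH, 37 were higher and none lower (45 with the block), 34 lay above both ends, and the median contrast was 1.54. Of 48 genes for complexes II to V, 39 were higher and none lower, with a median of 1.32. Of 78 genes for mitochondrial ribosomal proteins, which translate the few messages of the mitochondrial genome, 62 were higher and none lower, with a median of 1.21. In all, 138 of these 171 genes were called higher, against 13.5% of all genes tested. Medians under quantile normalization were 1.34, 1.21 and 0.98.

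Ndufb2, a small subunit of complex I (chr6:39592574-39603382, + strand), was the strongest of them. Its TPM was 51.0 to 275 in light libraries (median 85.4), 751 to 1232 in middle libraries (median 1046) and 302 to 425 in dense libraries (median 337). No middle library overlapped an end library, and the contrast was 2.46 ± 0.14 (SE, n = 2 gradients, adjusted p = 0.00444). Ndufa4, a small protein of complex IV that was first counted with complex I, had middle libraries at 1878 to 3086 TPM, clear of light libraries at 107 to 468 and dense libraries at 887 to 1485 (contrast 2.25 ± 0.17, SE, n = 2 gradients, adjusted p = 0.00444). The abundant complex I genes Ndufb8 and Ndufb9 had contrasts of 1.94 ± 0.15 and 1.54 ± 0.14 (SE; adjusted p = 0.00444 for each). The weakest member was Ndufaf4, an assembly factor, at 0.36 ± 0.18 (SE, n = 2 gradients, adjusted p = 0.219), with a level that declined from light to dense.

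Among complexes II to V the ATP synthase showed both kinds of profile. Atp5j2, a small membrane subunit, was a peak, with 109 to 769 TPM in light, 897 to 2652 in middle and 389.7 to 603 in dense libraries (contrast 2.16 ± 0.18, SE, n = 2 gradients, adjusted p = 0.00444). Atp5b, the catalytic beta subunit, was called as well (0.82 ± 0.15, SE, n = 2 gradients, adjusted p = 0.0201) but was no peak, and it lost the call with centred libraries (adjusted p = 0.0587) and with gradient 2 moved by 1 fraction to either side (0.0725 and 0.0817). Its middle libraries (2028 to 3265 TPM) lay above the light ones (323 to 1059.9) and below all dense ones (3515 to 4429). Atp5a1, the alpha subunit, had the same order and a contrast of 0.30 ± 0.15 (SE, n = 2 gradients, adjusted p = 0.213). Cox4i1, of cytochrome c oxidase, was above both ends at 0.90 ± 0.14 (SE, n = 2 gradients, adjusted p = 0.0132), and Uqcc1, an assembly factor of complex III, was the lowest of the list at −0.02 ± 0.14 (SE, n = 2 gradients, adjusted p = 0.924).

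Mitochondrial ribosomal proteins had their highest TPM at a median fraction of 12 in each gradient. Mrpl12, Mrpl52 and Mrps21, the most abundant, had contrasts of 1.22 ± 0.14, 1.48 ± 0.14 and 1.61 ± 0.16 (SE, adjusted p from 0.00483 to 0.00597). Mrpl12 was further above the dense zone (1.59) than above the light zone (0.85). The 2 differences were closer for Mrpl52 (1.62 and 1.34) and Mrps21 (1.65 and 1.56). The list as a whole had the opposite order, with medians of 0.94 against the dense zone and 1.64 against the light zone. Mrps28 had the largest contrast at 2.24 ± 0.24 (SE, n = 2 gradients, adjusted p = 0.00579). Mrpl19 had the lowest, at −0.28 ± 0.22 (SE, n = 2 gradients, adjusted p = 0.397) with 4.42 to 9.52 TPM in middle libraries, which overlapped both ends.

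The mitochondrial matrix enzymes did not share this peak. Of 36 such genes, which code for enzymes of the citric acid cycle, fatty acid oxidation and ketone body synthesis, 7 were higher and none lower (18 and 2 with the block; 4 and 3 after quantile normalization), and none lay above both ends. Their median contrast was 0.36, from 1.60 against the light zone and −0.72 against the dense zone. They had their highest TPM at a median fraction of 17. Their median coding length was 1281 bases, against 504, 405 and 582 for complex I, complexes II to V and mitochondrial ribosomal proteins. The 12 genes of those 3 lists with coding lengths of 1200 to 1800 bases had medians of 1.95 and −0.61 against the light and dense zones. The part of length in the difference between the groups was not tested. Acaa2, a thiolase of fatty acid oxidation, was at 0.35 ± 0.20 (SE, n = 2 gradients, adjusted p = 0.275). Etfb, an electron carrier subunit, had the highest contrast (1.15 ± 0.24, SE, n = 2 gradients, adjusted p = 0.0298) without lying above both ends. Cs, citrate synthase, had the lowest at −0.72 ± 0.25 (SE; adjusted p = 0.105, and 0.00442 with the block). The inner membrane carriers of the SLC25 family were counted too. Of 38 genes, 6 were higher and 1 lower (15 and 4 with the block), with a median of 0.24. These shares, 15.8% and 2.63%, were near the 13.5% and 3.61% of all genes. Slc25a1, the citrate carrier, was a peak at 1.33 ± 0.16 (SE, n = 2 gradients, adjusted p = 0.00669), and Slc25a23, a calcium-binding carrier, was the one called lower at −0.57 ± 0.13 (SE, n = 2 gradients, adjusted p = 0.0356). The abundant carriers Slc25a5, Slc25a47 and Slc25a39 had uncalled contrasts of −0.34, 0.66 and 0.19.

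Messages of proteins made on the endoplasmic reticulum (ER) had low middle contrasts and were high at the light end. Over 10 lists of secreted, membrane, ER and lysosomal proteins with 467 genes, 9 were called higher and 42 lower (19 and 206 with the block), and the median was −0.57. Of all genes 13.5% were higher and 3.61% lower (34.8% and 16.1% with the block). The lower calls of these lists numbered 83 after quantile normalization and 73 with centred libraries. The major urinary proteins, which are secreted too, are not among these lists and had no call. The medians of the 10 lists were −1.57 to −0.92 against the light zone and −0.14 to 0.18 against the dense zone. The 22 ER chaperones and disulfide isomerases had the lowest median of the protein-coding lists, −0.86, with 4 lower and none higher (14 lower with the block). Erp29, an ER-resident chaperone, was one of the 10 largest dips, with 68.1 to 156 TPM in light, 11.2 to 28.5 in middle and 16.0 to 37.3 in dense libraries. Its middle and dense libraries overlapped, and its contrast was −1.43 ± 0.24 (SE, n = 2 gradients, adjusted p = 0.0165). P4hb, the protein disulfide isomerase, was at −1.31 ± 0.38 (SE; adjusted p = 0.0682, and 0.0146 with the block), Calr, calreticulin, at −1.17 and Ppib, a prolyl isomerase, at −0.85, none of them called. The other genes of this list that were called lower were Canx, Creld2 and Ero1l, at −1.28 ± 0.29, −1.13 ± 0.17 and −1.15 ± 0.24 (SE), and of these Creld2 was a dip. Sdf2l1 was the highest member at 0.12.

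Among plasma protein genes, the 26 inter-alpha-trypsin inhibitors and plasma carriers had a median of −0.73 (none higher, 4 lower; 1 and 14 with the block). Trf, transferrin, the iron carrier of plasma, was a dip. Its TPM was 4132 to 14765 in light, 964 to 1907 in middle and 1219 to 2524 in dense libraries, where the middle and dense values overlapped, and its contrast was −1.53 ± 0.31 (SE, n = 2 gradients, adjusted p = 0.0261), with an adjusted p of 0.0526 when gradient 2 was moved by 1 fraction to the dense side. Alb, albumin, was called lower without being a dip, at −1.38 ± 0.35 (SE, n = 2 gradients, adjusted p = 0.0469), and lost its call under several settings with adjusted p of 0.0510 to 0.0757. Ahsg, fetuin A, was at −1.05 (adjusted p = 0.115), and Fetub was the highest of this list at 0.33. Gc, the vitamin D carrier, and Itih2 were the remaining called genes, at −1.13 ± 0.27 and −1.24 ± 0.25 (SE). Complement and coagulation genes (39) had a median of −0.53, with none higher and 1 lower (14 lower with the block). That is 2.56% against 3.61% of all genes, and with the block 16.1% of all genes were lower. The called gene was C3, the central complement component, at −1.31 ± 0.31 (SE, n = 2 gradients, adjusted p = 0.0408). Fgb and Hpx were at −0.89 and −1.06, C9 at −1.33 ± 0.42 (SE, adjusted p = 0.0789) and Mbl2, the highest, at 0.21. Of 30 serpins, a family of protease inhibitors, none was higher and 6 lower (1 and 10 with the block), with a median of −0.56. Serpina1a, Serpina1b, Serpina1c and Serpina1d, copies of the alpha-1-antitrypsin gene, had contrasts from −1.64 to −1.45 and adjusted p from 0.0159 to 0.0395. They are near-identical, and the sum of the 5 copies was 20001 to 45971 TPM in light, 1945 to 4800 in middle and 1855 to 3451 in dense libraries. Serpina12 was the highest serpin at 1.01 (adjusted p = 0.258, and 0.00834 with the block). Of 21 major urinary protein genes, which carry pheromones, none was called (4 higher and 3 lower with the block), and the median was −0.07. Their copies are near-identical too. The sum was 8965 to 60536 TPM in light libraries and 4162 to 39751 in middle ones, so the spread within a zone was wide. Members ran from −1.51 for Mup2 to 2.07 for Mup17, and the abundant Mup9 and Mup10 were at 0.08 and −0.98.

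Apolipoproteins and lipoprotein assembly genes (18) held both directions, with 1 higher and 3 lower (2 and 5 with the block) and a median of −0.43. Apob, the very long message of the main protein of low density lipoprotein, was called lower at −1.31 ± 0.25 (SE, n = 2 gradients, adjusted p = 0.0226), with 806 to 1878 TPM in light, 92.6 to 243 in middle and 64.8 to 134 in dense libraries. Its medians declined from light to dense and it was no dip, and its call was lost with gradient 2 moved by 1 fraction to the light side (adjusted p = 0.0666). Lipc, hepatic lipase, and Mttp, which loads lipid onto apolipoprotein B, were the others called lower, at −1.17 ± 0.18 and −1.12 ± 0.29 (SE). Apoc4, a short message, was the one called higher, at 0.95 ± 0.18 (SE, n = 2 gradients, adjusted p = 0.0236). Apoc1, Apoa2 and Apoc3, also short, were at 0.64 ± 0.33, 0.41 ± 0.35 and 0.20 ± 0.31 (SE), not called.

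The list of translocon, signal recognition, signal peptidase and oligosaccharyltransferase genes also held both directions. These proteins pass a growing chain into the ER, trim it and add its sugars. Of 35 genes, 8 were higher and 1 lower (10 and 16 with the block) around a median of −0.52, and 8 lay above both ends. The higher calls numbered 4 after quantile normalization and 2 with centred libraries, beside 1 and 2 lower. Sec61b, a small tail-anchored subunit of the protein-conducting channel, was a strong peak. Its TPM was 67.4 to 259.8 in light, 380.2 to 964 in middle and 188 to 279 in dense libraries, with no overlap, and its contrast was 2.00 ± 0.17 (SE, n = 2 gradients, adjusted p = 0.00444). Sec61g, the other small subunit, was at 1.49 ± 0.26 (SE, n = 2 gradients, adjusted p = 0.0176). Ost4, a very short oligosaccharyltransferase subunit, was at 0.69 ± 0.16 (SE, n = 2 gradients, adjusted p = 0.0368), with differences of −0.24 from the light zone and 1.61 from the dense zone. Protein subunits of the signal recognition particle, which brings ribosomes to the ER, were among the higher calls, with Srp14 at 1.73 ± 0.16 and Srp19 at 0.95 ± 0.18 (SE). The one called lower was Stt3b, a catalytic subunit that transfers the sugar chain, at −1.11 ± 0.28 (SE). Spcs3, of the signal peptidase, was the lowest at −1.36 ± 0.46 (SE; adjusted p = 0.0934, and 0.00566 with the block).

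The other ER-route lists had negative medians. Of 59 cytochrome P450 genes, membrane enzymes of drug and steroid metabolism, none was higher and 2 lower (16 lower with the block), with a median of −0.46. The share called lower, 3.39%, was near that of all genes, 3.61%, and with the block 16.1% of all genes were lower. Cyp2e1 was the lowest at −1.24 ± 0.53 (SE; adjusted p = 0.159, and 0.0235 with the block), Cyp3a11 and Cyp2c39 were at −0.20 and −0.33, and Cyp2g1 was the highest at 0.66. The called genes were Cyp2c38 and Cyp2d40, at −0.71 ± 0.18 and −1.07 ± 0.25 (SE). Of 193 plasma membrane solute carriers and ABC transporters, none was higher and 15 lower (5 and 91 with the block; 39 lower after quantile normalization), with a median of −0.55. Slc30a1, a zinc exporter, was the lowest at −1.26 ± 0.23 (SE, n = 2 gradients, adjusted p = 0.0213), and Slc38a3, a glutamine transporter, was at 0.08. The symbols of this list also take in Slc9a3r1 and Slc9a3r2, which are cytosolic scaffolds, at 0.48 and 1.24 (the highest), and the peroxisomal Abcd3 at 0.00. Of 31 lysosomal hydrolases, none was higher and 3 lower (18 lower with the block), with a median of −0.66. Lipa, the acid lipase, was called at −1.31 ± 0.22 (SE, n = 2 gradients, adjusted p = 0.0160). Gla and Ids were called too, at −0.65 ± 0.15 and −1.38 ± 0.19 (SE). Ctsh and Ctsd were not, at −0.60 and −1.05. Of 14 extracellular matrix genes, none was higher and 3 lower (8 lower with the block), with a median of −0.51. Bgn, biglycan, was called at −1.23 ± 0.21 (SE, n = 2 gradients, adjusted p = 0.0167), as were Nid1 and Sparc at −0.75 ± 0.17 and −1.03 ± 0.17 (SE), while Col18a1 was at −0.47, Dcn at −0.12 and Col15a1 at 0.29.

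**Figure D3:**
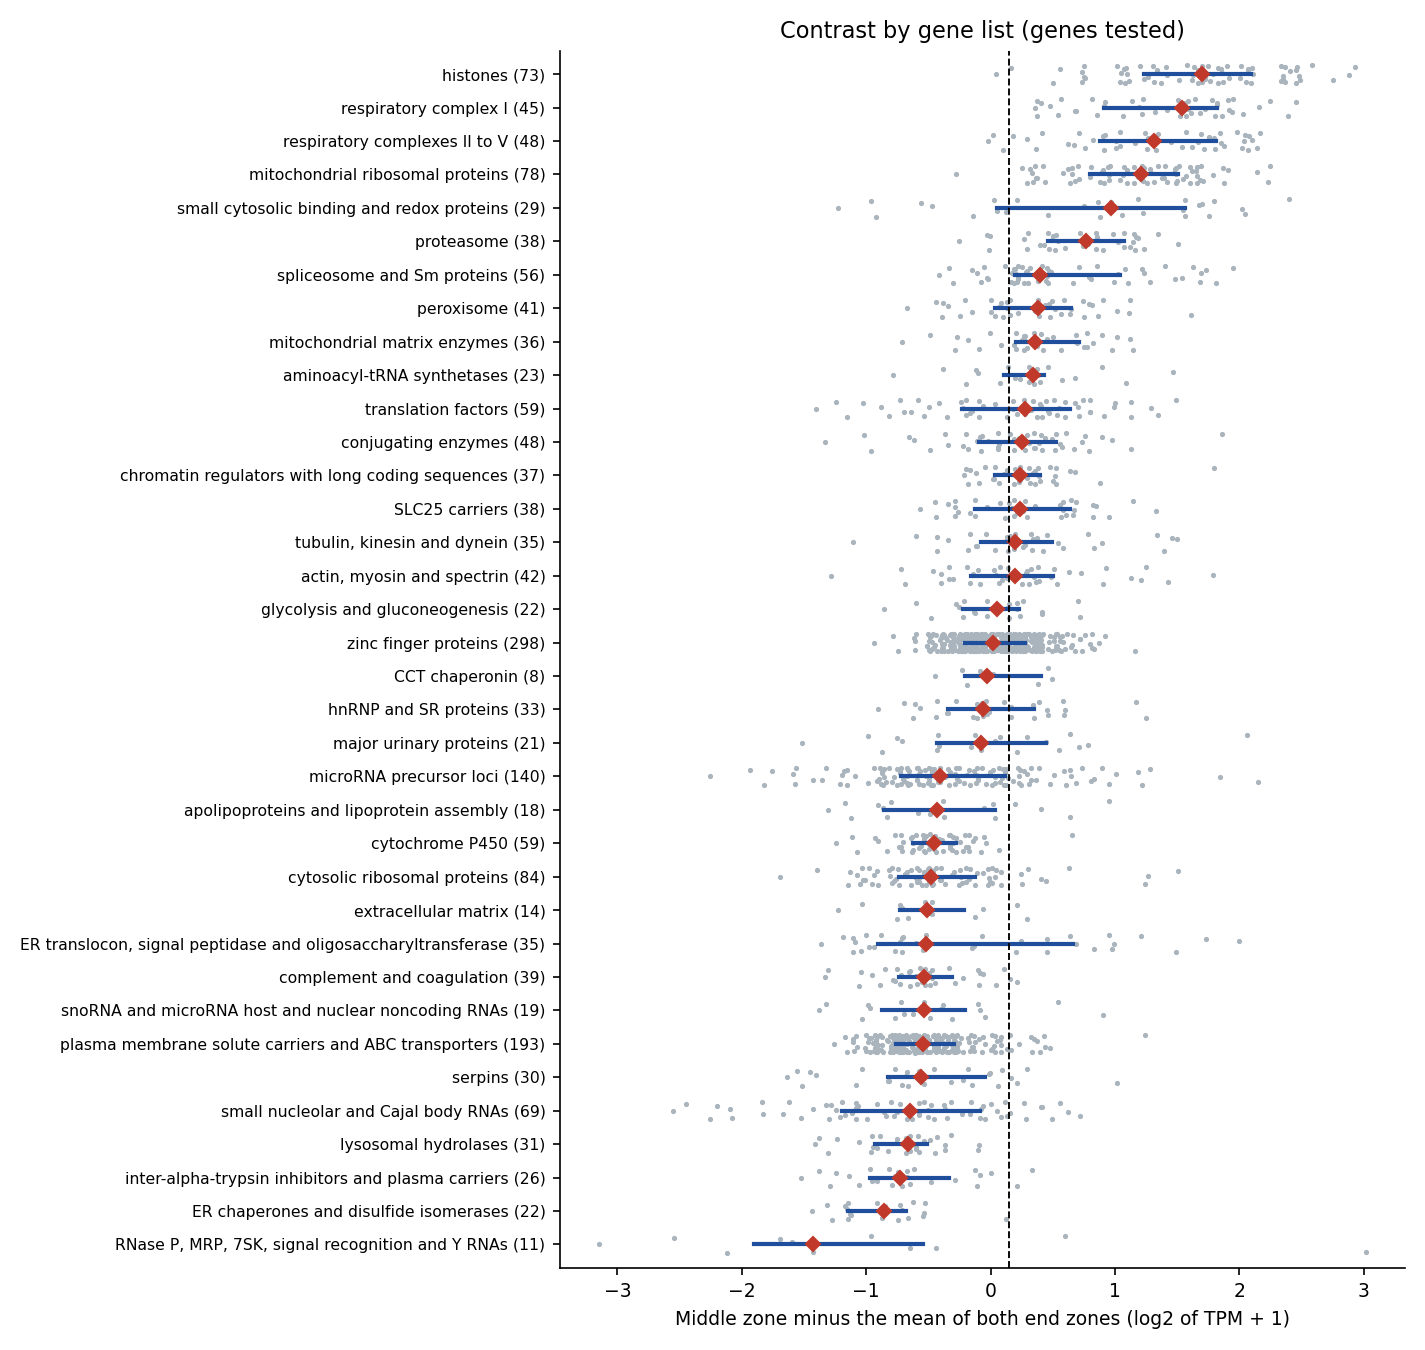
Middle contrast (x axis, log2 units) of every gene in 36 gene lists (rows): dots are genes, blue bars span the quartiles, red diamonds are list medians and the dashed line is the median of all genes at 0.15. Histones, respiratory complexes and mitochondrial ribosomal proteins lie furthest to the right, and the RNase P group, ER chaperones and plasma carriers furthest to the left.

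Genes for cytosolic ribosomal proteins, which coat the ribosomal RNA, mostly lay between a high light end and a low dense end. Of 84 genes, 2 were higher and 20 lower (6 and 53 with the block), and the median contrast was −0.48. That value was made of −1.72 against the light zone and 0.84 against the dense zone, and only 4 were below both ends and 5 above both. Their highest TPM was at a median fraction of 6. Rpsa, which codes for a small-subunit protein also known as a laminin receptor, was the largest ribosomal dip (chr9:120127689-120132369, + strand). Its TPM was 935 to 2294 in light libraries (median 1549), 131 to 256 in middle libraries (median 187) and 181 to 239.6 in dense libraries (median 218). The middle libraries were all below the light ones and overlapped the dense ones, and the contrast was −1.69 ± 0.19 (SE, n = 2 gradients, adjusted p = 0.00582). Rpsa hosts Snora62, whose reads can add to its own. Rpl41, the shortest ribosomal protein, was called lower at −0.73 ± 0.17 (SE, n = 2 gradients, adjusted p = 0.0407) while it stayed above the dense zone by 1.04. Rpl10 was at −0.40 ± 0.20 (SE), not called. Rps27l, a p53-responsive paralogue of Rps27, was a peak at 1.51 ± 0.19 (SE, n = 2 gradients, adjusted p = 0.00706), with 295 to 1492 TPM in middle libraries, and Rpl36al was the other gene called higher.

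**Figure D4:**
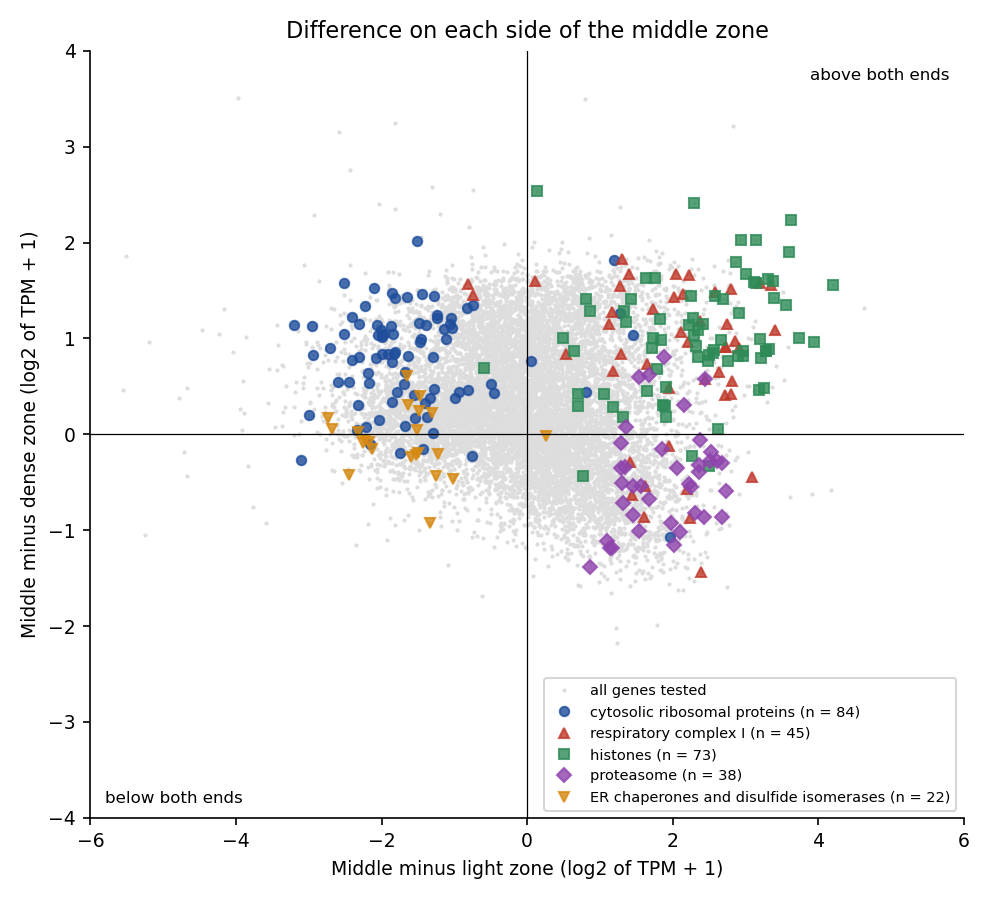
Middle-minus-light difference (x axis, log2 units) against middle-minus-dense difference (y axis, log2 units), one dot per gene, all genes in grey and 5 lists in colour. Histones and complex I genes sit in the upper right quadrant, above both ends, the proteasome in the lower right, the ER chaperones at the left near 0 on the y axis, and cytosolic ribosomal proteins in the upper left, below the light zone and above the dense zone.

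Translation factors were spread over both directions. Of 59 genes, 16 were higher and 9 lower (26 and 14 with the block), with a median of 0.28. These shares were 27.1% and 15.3%, beside 13.5% and 3.61% of all genes (34.8% and 16.1% with the block). After quantile normalization 8 were higher and 12 lower, and with centred libraries 8 and 10. Eef1a1, which brings aminoacyl-tRNA to the ribosome, was a dip. Its TPM was 7050.3 to 19581 in light, 1467 to 2549.9 in middle and 1514 to 2343 in dense libraries, where the middle and dense ranges overlapped, and its contrast was −1.41 ± 0.25 (SE, n = 2 gradients, adjusted p = 0.0195). Eef2, the translocation factor, was called lower too (−1.02 ± 0.16, SE, n = 2 gradients, adjusted p = 0.0121). Eif5a, which relieves stalled ribosomes, was a peak at 1.13 ± 0.14 (SE, n = 2 gradients, adjusted p = 0.00666), and Eif4ebp3, a small inhibitor of cap binding, had the highest contrast at 1.49 ± 0.38 (SE, n = 2 gradients, adjusted p = 0.0483).

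Messages for ribosomal proteins and some translation factors begin with a pyrimidine tract at the cap. Windows of 30 bases centred on the RefSeq start site on GRCm38 are shown for Eef1a1, for Rpl15 and Rps18 (called lower) and for Rps27l and Rpl36al (called higher), a choice made after their values were seen. The longest run of C and T is in capitals. It spans the annotated start in Eef1a1, Rpl15 and Rps18 and lies before it in Rps27l and Rpl36al, but also in Rplp0, Rps7 and Rpl9, which were called lower, so these examples show no order of position by call.
Eef1a1: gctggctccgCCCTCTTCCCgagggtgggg
Rpl15: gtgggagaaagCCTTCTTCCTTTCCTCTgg
Rps18: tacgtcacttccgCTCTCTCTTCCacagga
Rps27l: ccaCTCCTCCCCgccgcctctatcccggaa
Rpl36al: caTTCCCgtcgctcaggttcagttccgact
They lie at chr9:78481710-78481739 (−), chr14:18270972-18271001 (−), chr17:33955651-33955680 (−), chr9:66946071-66946100 (+) and chr12:69184053-69184082 (−). The middle contrasts were −1.41 for Eef1a1, −0.80 for Rpl15, −0.95 for Rps18, 1.51 for Rps27l and 1.24 for Rpl36al. A run of at least 8 C or T on the sense strand within 25 bases of the start was present in 53.2% of the 62 matched ribosomal protein genes and in 22.6% of all 8931 matched genes. It was present in 52.9% of the ribosomal genes called lower (9 of 17), in 53.5% of those not called (23 of 43) and in 1 of the 2 called higher. Among all genes the share was 32.5% of 80 matched dips and 15.3% of 1037 matched peaks, and it was 28.9% of 45 matched translation factors, with 3 of the 5 matched factors called lower among them. Annotated starts can differ from those used in liver.

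The proteasome genes were often higher at the centre than the mean of the ends, but few of them peaked there. Of 38 proteasome genes, 19 were higher and none lower (31 and 0 with the block), with a median of 0.76. Of all genes 13.5% were higher (34.8% with the block). Only 6 proteasome genes lay above both ends in each gradient, as did 2937 of all 11754 genes tested. The proteasome median was −0.51 against the dense zone. The proteasome, which degrades ubiquitin-tagged proteins, had its highest message levels at median fractions of 15.5 and 15. Psmb4, Psmb7 and Psmb6, core subunits, had contrasts of 1.17 ± 0.18, 1.03 ± 0.17 and 1.12 ± 0.18 (SE; adjusted p from 0.0119 to 0.0165), each with middle and dense libraries that overlapped. Psmb9, the interferon-inducible subunit, was the highest at 1.51 ± 0.25 (SE, n = 2 gradients, adjusted p = 0.0154) and Psma5 the lowest at −0.26 ± 0.15 (SE, n = 2 gradients, adjusted p = 0.278). Further genes of this machine are among the single genes that the study shows. Psmd2 was called at 0.86 ± 0.16 (SE, n = 2 gradients, adjusted p = 0.0206), and not when gradient 2 was moved by 1 fraction to the light or dense side (adjusted p = 0.0533 and 0.0779). Psma1, Psmb1, Psmc5, Psmd13 and Adrm1, at 0.27, 0.46, 0.50, 0.43 and 0.85, were not, with adjusted p from 0.0554 to 0.262. With the block all of these but Psma1 passed, at 0.00266 to 0.0338. None of them lay above both ends. Of the other genes shown, Fn1, fibronectin, was at −0.74 ± 0.20 (SE; adjusted p = 0.0576, and 0.0196 with the block) and declined from light to dense, as Apob did.

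The CCT chaperonin, which folds actin and tubulin, had no call among 8 genes (3 higher and 1 lower with the block) and a median of −0.03. Cct5, Cct2 and Cct3 were at −0.19, −0.08 and 0.50. Tcp1 was below both ends, at −0.44 ± 0.13 (SE; adjusted p = 0.0624, and 0.0124 with the block). Of 23 aminoacyl-tRNA synthetase genes and their partners, 4 were higher and 1 lower (10 and 2 with the block), with a median of 0.34. The shares of 17.4% and 4.35% were near those of all genes, 13.5% and 3.61%. Aars, Nars and Eprs were at 0.31, −0.20 and 0.31, not called. Gars, Hars and Mars were called higher at 0.90 ± 0.14, 1.09 ± 0.16 and 0.68 ± 0.16 (SE), without being peaks. The extremes of the list were scaffold proteins of the synthetase complex. Eef1e1, a short message, was a peak with 6.02 to 13.4 TPM in light, 21.0 to 30.4 in middle and 6.04 to 9.80 in dense libraries (1.47 ± 0.18, SE, n = 2 gradients, adjusted p = 0.00712). Aimp1 was a dip with 53.0 to 81.1, 32.4 to 45.4 and 52.5 to 94.2 TPM in the same order (−0.79 ± 0.16, SE, n = 2 gradients, adjusted p = 0.0247). Neither gene's middle libraries overlapped the ends. Glycolysis and gluconeogenesis genes (22) had 1 lower and none higher (4 higher and 3 lower with the block), with medians of 1.06 against the light zone and −1.02 against the dense zone. Gapdh and Pck1 were at −0.27 and −0.03, G6pc at −0.86 and Pfkl at 0.72, none of them called. The called gene was Pgk1, phosphoglycerate kinase, a dip at −0.60 ± 0.15 (SE).

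Of 29 genes for small cytosolic binding and redox proteins, 15 were higher and 1 lower (19 and 3 with the block), 15 lay above both ends, and the median was 0.97. Dbi, the acyl-CoA binding protein, was clear of both ends, with 282 to 886 TPM in light, 3546 to 6278 in middle and 1311 to 2339 in dense libraries (2.40 ± 0.19, SE, n = 2 gradients, adjusted p = 0.00444). Fabp1, the liver fatty acid binding protein, reached 26917 to 89500.5 TPM in middle libraries against 2348 to 9192 in light and 21093 to 42819 in dense ones, where the middle libraries overlapped the dense ones only (2.05 ± 0.25, SE, n = 2 gradients, adjusted p = 0.00708). Gpx1, a selenium enzyme that removes peroxide, was at 1.19 ± 0.17 (SE, n = 2 gradients, adjusted p = 0.00982). Tpt1, a growth-related protein, was the one called lower, at −0.96 ± 0.19 (SE). Ftl1, ferritin light chain, had a middle median of 7538 TPM against 15504 and 19660.0 at the ends, with a contrast of −1.22 ± 0.46 (SE; adjusted p = 0.122, and 0.0325 with the block). Of 48 conjugating enzymes, 6 were higher and none lower (18 and 4 with the block; 2 higher with centred libraries), with a median of 0.25. The share higher, 12.5%, was near the 13.5% of all genes (34.8% of all genes with the block). Sult3a2, a sulfotransferase, was the strongest (1.86 ± 0.15, SE, n = 2 gradients, adjusted p = 0.00444), with 941 to 1593 TPM in middle libraries and no overlap. Gstp3, Gstm1 and Gsta3 were at 0.41, 0.07 and −0.07, and Ugt2b34 was the lowest at −1.33, none called. Of 41 peroxisomal genes, 9 were higher and none lower (21 and 4 with the block), with a median of 0.38. The share higher was 22.0%, beside 13.5% of all genes (34.8% with the block). With centred libraries 4 were higher, a share near that of all genes, 1214 of 11754. Pex7, an import receptor, was a peak at 1.61 ± 0.16 (SE, n = 2 gradients, adjusted p = 0.00501), and Phyh, an oxidase of branched fatty acids, was called at 1.02 ± 0.20 (SE, n = 2 gradients, adjusted p = 0.0230). Cat and Uox were at 0.07 and −0.38, and Abcd4 was the lowest at −0.67, none called.

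Within the cytoskeleton lists the direction differed from gene to gene, and the median of each changed sign under a scaling, so no direction is given for them. Of 42 actin, myosin and spectrin genes, 9 were higher and 2 lower (13 and 8 with the block). These shares were 21.4% and 4.76%, beside 13.5% and 3.61% of all genes. With the block 34.8% of all genes were higher and 16.1% lower, and the shares of the list were near those. Actb was at 0.09 ± 0.16 (SE), whereas Myl6, a myosin light chain, was at 1.79 ± 0.23 (SE, n = 2 gradients, adjusted p = 0.00758) and Pfn1, which binds actin monomers, at 1.42 ± 0.22 (SE, n = 2 gradients, adjusted p = 0.0132). Arpc1a, a subunit of the Arp2/3 complex, was a dip, with 90.7 to 225 TPM in light, 30.6 to 42.3 in middle and 46.8 to 60.9 in dense libraries and no overlap (−1.29 ± 0.14, SE, n = 2 gradients, adjusted p = 0.00581). Actg1, a cytoplasmic actin, was the other gene called lower, at −0.72 ± 0.18 (SE). Of 35 tubulin, kinesin and dynein genes, 6 were higher and 1 lower (13 and 4 with the block), shares of 17.1% and 2.86% beside 13.5% and 3.61% of all genes. Dynlrb1, a dynein light chain, was a peak at 1.50 ± 0.12 (SE, n = 2 gradients, adjusted p = 0.00444). Tubb5, a beta tubulin, was the one called lower, at −1.10 ± 0.14 (SE, n = 2 gradients, adjusted p = 0.00730), and lay below both ends without overlap. Dynll2 was called at 0.78 ± 0.15 (SE, n = 2 gradients, adjusted p = 0.0239), with differences of −0.05 from the light zone and 1.62 from the dense zone, and Tuba4a was at −0.43, not called.

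Of 56 genes for spliceosome proteins and for Sm proteins, which form the core of the spliceosomal particles, 18 were higher and none lower (30 and 2 with the block), with a median of 0.40. Lsm7, of the ring that binds U6 RNA, was the highest at 1.95 ± 0.17 (SE, n = 2 gradients, adjusted p = 0.00444), Snrpd3 and Snrpd2, Sm core proteins, were at 1.81 ± 0.20 and 1.40 ± 0.15 (SE; adjusted p = 0.00582 for each), Snrpb was at 0.22 and Prpf3 was the lowest at −0.41. Of 33 hnRNP and SR protein genes, 2 were higher and none lower (7 and 7 with the block), with a median of −0.06. The share higher was 6.06%, beside 13.5% of all genes. Lower calls numbered 4 after quantile normalization and 3 with centred libraries. Hnrnpab was a peak at 1.25 ± 0.12 (SE, n = 2 gradients, adjusted p = 0.00503) and Srsf9 another at 1.17 ± 0.13 (SE), while Hnrnpa2b1, Hnrnpf, Srsf5 and Hnrnpa1 were uncalled at 0.58, 0.17, 0.34 and −0.91. Of 298 zinc finger genes, 3 were higher and 3 lower (56 and 32 with the block). Each share was 1.01%, below the 13.5% and 3.61% of all genes (34.8% and 16.1% with the block). The counts were 4 and 9 after quantile normalization and 1 and 16 with centred libraries. Zfp511 and Zfp871 were the extremes at 1.16 ± 0.24 and −0.93 ± 0.21 (SE; adjusted p = 0.0299 and 0.0360). Zfp146 and Zfp580 were also called higher, at 0.81 and 0.72, and Zfp300 and Zfp60 lower, at −0.75 and −0.78. The abundant Zfp36l1, Zfp36 and Zfp706 were at −0.61, −0.37 and 0.55, not called. The median of this list, like that of the glycolysis list, changed sign under a scaling. Of 37 chromatin regulators with long coding sequences, 2 were higher and none lower (15 and 0 with the block), with a median of 0.24. The called genes were Crebbp, an acetyltransferase, at 0.64 ± 0.16 and Smarca5, a remodelling ATPase, at 0.88 ± 0.17 (SE). Ncor1 and Smarca2 were at 0.52 and 0.07, Ash1l was the lowest at −0.21 and Chd4 the highest at 1.79 ± 0.53 (SE, n = 2 gradients, adjusted p = 0.0678). Chd4 ran from 0 to 30.8 TPM in light libraries.

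Ybx1, the Y-box protein that packages cytoplasmic mRNA, was a dip on both sides (chr4:119277981-119294604, − strand). Its TPM was 156 to 850.1 in light libraries (median 426), 96.7 to 137 in middle libraries (median 109.5) and 176 to 275 in dense libraries (median 215). No middle library overlapped either end, and the contrast was −1.38 ± 0.14 (SE, n = 2 gradients, adjusted p = 0.00508). Among the 10 largest dips it was the only one that also passed the test against the dense zone alone (−0.95, adjusted p = 0.0114). The remaining protein-coding dips of that group were membrane or secreted protein genes with large light-zone values. Tm9sf3, a multi-pass membrane protein, was at −1.52 ± 0.36 (SE, n = 2 gradients, adjusted p = 0.0423), Nptn, neuroplastin, at −1.34 ± 0.34 (SE, n = 2 gradients, adjusted p = 0.0483), and Twsg1, a secreted binder of bone morphogenetic proteins, at −1.31 ± 0.27 (SE, n = 2 gradients, adjusted p = 0.0287). For all 3 the middle and dense libraries overlapped, and each lost its call in at least 1 alternative. Nptn lost it in many, among them a pseudocount of 0.1 (adjusted p = 0.0564) and centred libraries (0.0516). It also lost it with gradient 2 moved by 1 fraction to the light or dense side (0.0803 and 0.0596) and without several single libraries.

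The 4 lists of noncoding RNAs all had negative medians. Rnu12, the U12 RNA of the minor spliceosome, had the largest contrast among dips, −3.15 ± 0.53 (SE, n = 2 gradients, adjusted p = 0.0165). Its TPM was 27.1 to 1574 in light libraries (median 141), 0 to 38.1 in middle libraries, 4 of them at 0, and 0 to 24.1 in dense libraries. The middle libraries overlapped both ends. Of 11 genes of a list of RNase P, MRP, small nuclear and other short structural RNAs, 1 was higher and 5 lower (1 and 7 with the block), with the lowest list median of all, −1.42, made of −3.86 against the light zone and 1.02 against the dense zone. Rpph1, the RNA of RNase P, which trims transfer RNA precursors, took up to 249286 TPM of a light library. It had 5276 TPM in the lowest light library, 541 to 1626 in middle and 353 to 1409 in dense libraries, and its contrast was −2.12 ± 0.16 (SE, n = 2 gradients, adjusted p = 0.00444). Since TPM is a share, so large a value lowers all other genes in that library, and its part in their contrasts was not tested beyond the rescaling without the 50 most abundant genes. Rpph1 overlaps Ccnb1ip1. Rmrp, the MRP RNA, was at −1.42 ± 0.47 (SE; adjusted p = 0.0903, and 0.0164 with the block), and Rprl3, an RNase P RNA-like gene, at −2.54 ± 0.17 (SE, n = 2 gradients, adjusted p = 0.00444). Rprl1 and Terc, the telomerase RNA, completed the genes called lower, at −0.96 ± 0.17 and −1.60 ± 0.22 (SE).

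Of 69 small nucleolar and Cajal body RNAs, none was higher and 11 lower (21 lower with the block), with a median of −0.65. Snora20 was called at −1.17 ± 0.26 (SE, n = 2 gradients, adjusted p = 0.0350) but lies within Tcp1. Scarna2 and Scarna10 were at 0.12 and 0.13, and the extremes, Snord22 at −2.56 and Snord91a at 0.72, were not called. Of 19 snoRNA and microRNA host and nuclear noncoding RNAs, 1 was higher and 5 lower (1 and 9 with the block), with a median of −0.53. Malat1, a nuclear RNA, was at −1.38 ± 0.35 (SE, n = 2 gradients, adjusted p = 0.0488), and Snhg6 at −1.03 ± 0.17 (SE, n = 2 gradients, adjusted p = 0.0149). Gas5, Snhg4 and Snhg8, hosts of small nucleolar RNAs, were called lower at −0.97, −0.77 and −1.32. Mir22hg was the one called higher, at 0.91 ± 0.17 (SE, n = 2 gradients, adjusted p = 0.0217).

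Of 140 microRNA precursor loci, 3 were higher and 15 lower (5 and 25 with the block), with a median of −0.41. These shares were 2.14% and 10.7%, beside 13.5% and 3.61% of all genes. With the block 34.8% of all genes were higher and 16.1% lower, and the lower share of the loci was near that. The libraries count fragments of the locus and not mature microRNAs, and many loci lie within a host gene. Mir7652, the second largest dip, lies in G3bp1 on the same strand, a host whose own contrast was −0.60 ± 0.19 (SE, adjusted p = 0.0875). Its mature RNAs in RefSeq are shown because they identify the locus, with the seed (bases 2 to 8) in capitals.
mmu-miR-7652-5p: uAAGGGCAcagggauuucaggc
mmu-miR-7652-3p: uCUGGCUUuccuguggcuucu
They lie at chr11:55501226-55501247 and chr11:55501261-55501281 on the + strand of GRCm38.p6 and share no seed. The locus had 4.68 to 379 TPM in light libraries (median 96.1), 0 to 16.9 in middle libraries (median 3.96) and 0 to 160.3 in dense libraries (median 8.53), with overlap throughout. Its contrast was −2.26 ± 0.40 (SE, n = 2 gradients, adjusted p = 0.0186). The adjusted p was 0.0887, 0.0605 and 0.0600 without fractions 6, 13 and 18 of gradient 1. With narrow zones (fractions 4 to 5, 11 to 12 and 18 to 19) the contrast was −1.72 with an adjusted p of 0.184. Mir5133, in Glce, had the highest contrast of the loci, 2.15 ± 0.54 (SE, n = 2 gradients, adjusted p = 0.0470), and Mir25 and Mir5125 were also called higher, at 1.21 ± 0.13 and 1.85 ± 0.28 (SE). The most abundant, Mir6516, Mir568 and Mir3113, were at −1.82, −0.48 and 0.48, not called.

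The pairing of zones within a gradient changed further calls. Of the genes given above as not called, or with an adjusted p above 0.05 and no blocked value, these were called with the gradient as a block, in the direction of the contrast given: Ndufaf4, Slc25a5, Slc25a47, Calr, C9, Fetub, Mup2, Mup10, Mup17, Apoc1, Ctsd, Slc9a3r2, Rpl10, Cct3, G6pc, Pfkl, Ugt2b34, Uox, Abcd4, Tuba4a, Hnrnpa1, Hnrnpa2b1, Prpf3, Zfp36, Zfp36l1, Zfp706, Ncor1, Chd4, Snord22 and Mir6516. Their blocked adjusted p ran from 0.000904 for Chd4 to 0.0482 for Rpl10.

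Short coding sequences were common among the peaks. A coding length was available for 10999 genes (93.6% of those tested), with a median of 1353 bases. The median was 684 bases for peaks, 1041 for the other genes called higher, 1321.5 for dips and 1464 for genes not called. For the lower genes that were no dips it was 1137, but only 79.4% of them had a length. Of genes of 300 bases or less, 48.0% were called higher, and of genes over 300 and up to 450 bases 48.8%. The share was 27.9% for 450 to 600, 20.3% for 600 to 900 and 12.5% for 900 to 1200. It was 7.74% for 1200 to 1800 and 3.42% above 4500. The median contrast did not fall throughout. It was 0.91 at 300 to 450 bases, 0.02 at 1200 to 1800 and 0.23 above 4500. In the same 3 bins 59.1%, 17.6% and 31.4% of genes lay above both ends in each gradient. Across the 10999 genes Spearman's rho between coding length and the middle contrast was −0.17. It was −0.05 for the middle-minus-light difference and −0.28 for the middle-minus-dense difference, so the steady part of the relation was mainly with the dense side. The median middle-minus-light difference was 0.67, −0.05 and 0.21 in the 3 bins above, a turn that rho does not describe. The points of these correlations are genes of the same libraries, not independent replicates, and the fixed RNA mass per library links them. Genes of like length still differed between groups. Among genes of 300 to 450 bases the median was 1.78 for 64 histones, 1.60 for 48 genes of the 3 mitochondrial lists, 0.77 for 457 genes outside the groups compared, 0.30 for 10 ER-route genes and −0.27 for 32 cytosolic ribosomal protein genes. Up to 300 bases the order of the ER-route genes was the other way, with 0.83 for 7 of them and 0.72 for 188 genes outside the groups.

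**Figure D5:**
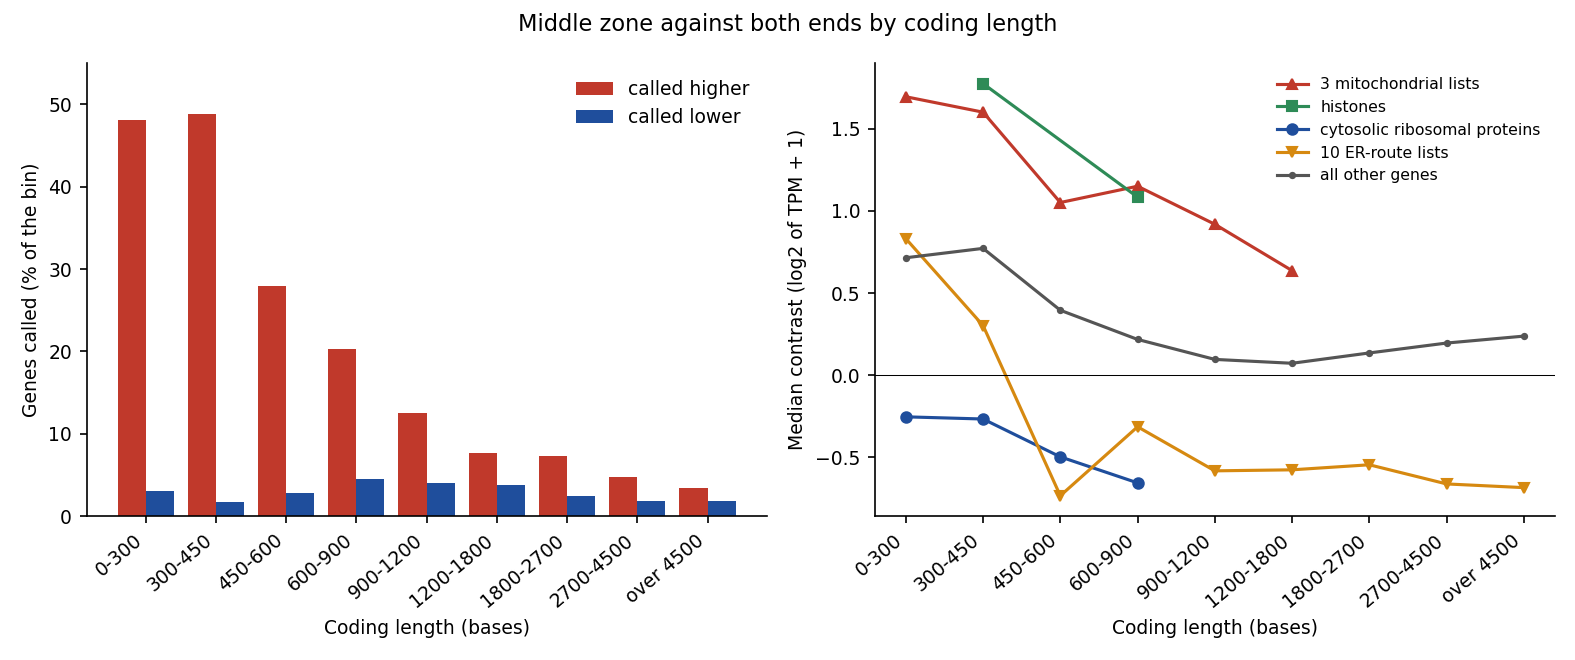
Left, the percentage of genes called higher and called lower at the centre (y axis) in 9 bins of coding length in bases (x axis). Right, the median middle contrast (y axis, log2 units) in the same bins for 3 mitochondrial lists, histones, cytosolic ribosomal proteins, ER-route lists and all other genes, where a group has at least 5 genes in the bin. The share called higher falls from 48.8% at 300 to 450 bases to 3.42% above 4500. The median of all other genes falls to 0.07 at 1200 to 1800 bases and is 0.24 above 4500. The mitochondrial and ribosomal lines stay apart at equal length.

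Markers of the cell types of liver were followed along the same zones. In a homogenate, fewer cells of a type and less RNA per cell cannot be told apart. The markers of liver parenchyma were abundant, as the label of the tissue has it: the summed TPM of 8 hepatocyte markers was 27011 to 59814 in light, 8331 to 15711 in middle and 11612 to 25654 in dense libraries. None of these 8 genes was higher and 2 were lower at the centre, Alb and Serpina1a (1 and 3 with the block), with a median of −0.59. The 10 Kupffer cell markers summed to 199 to 265, 88.0 to 129 and 99.1 to 143 TPM in the same order, with none higher and 1, Cd5l, lower (7 lower with the block) and a median of −0.67. The 7 sinusoidal endothelial markers tested had a median of −0.33, the 7 stellate cell markers −0.46 and the 3 cholangiocyte markers −0.26, with no gene called (1 higher and 2 lower, 3 lower and none with the block). Their sums were 56.4 to 110, 38.0 to 79.8 and 31.9 to 48.8 TPM for endothelial cells, 47.8 to 91.9, 23.0 to 41.9 and 15.8 to 31.7 for stellate cells, and under 9.43 for cholangiocytes in every library. The 3 erythroid markers tested, at 258 to 496, 135 to 455 and 66.4 to 106 TPM, had a median of 0.52 and no call (1 higher with the block). Lymphocyte markers summed to at most 3.91 TPM and none was tested. The part of the cell types in the contrasts was not tested.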

How the data were processed

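RNA-seq of sucrose gradient fractions of mouse liver was used, from 24 of 39 libraries (17 of gradient 1, 22 of gradient 2). Per the methods of the authors and the deposited notes, stranded total-RNA libraries depleted of ribosomal RNA were made from an equal RNA mass per fraction, demultiplexed with bcl2fastq 2.16.0.10, and quantified with Kallisto on an mm10 RefSeq index as TPM, transcript abundances scaled to a fixed total per library, the unit of both deposited tables. All value columns were matched to a library. TPM holds no counts, so depth is unknown and no count model was used. Library totals of the 24 columns were 997449 to 999109.

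Genes in both tables (13230 of 13982 and 13634) with a mean TPM of at least 1 (11754) were analysed as log2(TPM + 1), which understates the change of low genes. Zone means (3 zones, 2 gradients) were fitted with limma 3.58.1 in R 4.3.3 (moderated variance with trend), without the gradient in the model, and p-values were adjusted by Benjamini-Hochberg over all genes tested, two-sided, with a threshold of 0.05. The zones of a gradient come from one homogenate and are therefore paired. The gradient deviations of zones correlated across genes at 0.665 (light and middle), 0.540 (light and dense) and 0.798 (middle and dense), and blocked counts are given beside the others. The rule for named genes was the 10 largest peaks and dips at a mean TPM of at least 10, of each list the 3 most abundant members and both extremes, and 10 of the single genes that the study shows. A few genes named by this rule are not reported here. The members and lists were chosen with earlier results of these data known. Scripts were tested on simulated data. Alternatives covered the block, pseudocount, filters, scaling, zone borders and libraries left out. Sequences came from GENCODE M21 and RefSeq on GRCm38.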

Additional observations from a re-analysis of the deposited data

How the results depend on the processing

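With the gradient as a replicate block, the pairing gave 5979 calls (4089 higher, 1890 lower; 2610 higher and above both ends, 503 lower and below both), 8478 against the light zone and 6275 against the dense zone. A fit of the 2 per-gradient differences alone gave 8275 calls (5274 and 3001; 2849 and 649 above and below both ends). Its residual spread rests on 1 degree of freedom. Genes called lower numbered 276 with a pseudocount of 0.1, 876 after quantile normalization, 272 with a middle zone of fractions 9 to 14 and 906 with libraries centred on their median. Those lower and below both ends numbered 513 after quantile normalization, 196 with narrow zones (4 to 5, 11 to 12, 18 to 19), 46 with the wider middle and 567 with centring. Moving gradient 2 by 1 fraction to the light side gave 1255 calls, 104 lower and 27 below both ends, and to the dense side 862 calls, 693 higher, 169 lower, 656 above both ends and 46 below both. The 2 alternatives of centring, and of quantile normalization with the block (5724 calls, 2955 higher, 2769 lower, 1503 below both ends), were chosen after seeing the data. The median contrast of all genes, 0.146 as reported, was 0.196 with the smaller pseudocount, 0.0915 without a filter, 0.280 at a mean TPM of at least 10, 0.00887 after quantile normalization with or without the block, 0.0604 without the 50 most abundant genes, 0.209 with narrow zones, 0.190 and 0.106 with gradient 2 moved to the light and dense side, and −0.0505 with centring, where it reversed. For all of these the cause was not tested. With single libraries left out, that median was 0.121 to 0.161, calls were 1484 (without fraction 4 of gradient 1) to 2138, lower calls 274 (without fraction 5 of gradient 2) to 537, and calls lower and below both ends 73 (without the same library) to 133. With one gradient alone it was 0.145 to 0.152, with no test. No called gene changed sign in any alternative across all genes except 1 with narrow zones. For the 20 largest peaks and dips and the 10 single genes taken from the study, 372 values under other settings kept their direction and call, 25 lost the call and 20 gained it. With a library left out, 689 kept it, 23 lost it and 8 gained it. Alb, Nptn, Tm9sf3 and Mir7652 held most losses. A planned comparison of the hydrophobicity of protein N-termini was not run. Depth cannot be recovered from TPM, so values near 0 carry no interval.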

Other observations

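Families that share the start of their symbol and lie outside the lists were counted after their values were seen, so the counts are descriptions with no test. Only families with at least 8 genes tested were taken. Of all genes, 13.5% were called higher at the centre (34.8% with the block). Of 13 Timm genes, which code for import proteins of the inner mitochondrial membrane, 9 were higher, and of 9 Tomm genes of the outer membrane 4 were. The Chchd family, with paired cysteines and mostly mitochondrial, had 7 of 8. The Chmp family, which bends membranes away from the cytosol, and the Commd family, which acts in endosomal sorting, had 7 of 10 each. Of 27 Med genes (Mediator) 12 were higher (17 with the block), of 28 Polr genes (RNA polymerase subunits) 12 (19), of 10 Exosc genes (the RNA exosome) 5 (7), of 10 Anapc genes (the anaphase-promoting complex) 5 (8), of 11 Ints genes (Integrator) 1 (8), of 20 Nup genes (mostly of the nuclear pore) none (5) and of 10 genes with symbols that start with Mcm none (1). The differences between families were not tested. Of 39 Ube genes of ubiquitin transfer, 13 were higher.

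Of all genes, 3.61% were called lower (16.1% with the block). Of 17 Zdhhc genes, palmitoyltransferases with several membrane spans, 5 were lower (10 with the block). Of 154 Tmem genes, named only for their predicted membrane spans, 19 were lower and 7 higher (62 and 19). Of 10 Tspan genes (tetraspanins) none was lower (5), and of 14 Gpr genes (receptors coupled to G proteins) 1 was (7).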
